A study of Mus musculus with 6 samples.

Results

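The 10 genes described here are markers of the neural progenitors and neurons of the embryo, measured in presomitic mesoderm of wild-type and Nrarp knockout mouse embryos. They are the progenitor transcription factor genes Sox2, Sox1 and Pou3f2, the dorsoventral patterning genes Irx3 and Olig2, the proneural gene Neurog1, the radial glial gene Fabp7, and the neuronal genes Tubb3, Stmn2 and Pcp4. Each is represented by its only single-gene probe, so that 10 of 13840 named genes are considered. They had been proposed because some of them leaned upward in the knockout, and their differences between genotypes are therefore given as a description without a test.

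Presomitic mesoderm is the unsegmented tissue beside the caudal neural tube, and somites bud from its anterior end. The tissue was dissected at embryonic day 10.5 from the offspring of heterozygous intercrosses. In the knockout the coding region of Nrarp, a Notch-induced feedback regulator of Notch signalling, was replaced by LacZ, and the controls were littermate wild-type embryos. Each genotype has 3 one-colour arrays, numbered 1 to 3. For each genotype 12 presomitic mesoderms were collected, but the labels do not say how these were divided among the arrays, nor the strain. Any p-value therefore rests on array-to-array spread alone, and that spread may be technical.

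The caudal neural tube lies against the presomitic mesoderm, and both arise in part from common progenitors in the tailbud. Sox2 and Sox1 are SoxB1 factors that hold neural cells in a progenitor state, and Sox2 is also made by tailbud progenitors. Notch signalling keeps neural progenitors from differentiating by repressing proneural genes such as Neurog1. Fabp7 encodes a fatty acid binding protein of radial glia and is known in that cell type as a Notch target.

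Promoter letters are shown for Fabp7 and Pcp4, which read higher on every knockout array, and for Sox2, which read lower in all 3 replicate pairs. They were taken from the RefSeq table (assembly GRCm38.p6), which matched 9 of the 10 genes, all but Stmn2. Each sequence holds the 250 bases before the gene's start, read on the gene's own strand, at chr10:57784673-57784922 (plus strand) for Fabp7, chr16:96467356-96467605 (plus strand) for Pcp4 and chr3:34649745-34649994 (plus strand) for Sox2. Capitals mark matches on either strand to the RBPJ core TGGGAA, the E-box CANNTG, the N-box CACNAG, the SOX cores ACAATG and ACAAAG, or the octamer, none of which overlap in these 3 windows.
Fabp7: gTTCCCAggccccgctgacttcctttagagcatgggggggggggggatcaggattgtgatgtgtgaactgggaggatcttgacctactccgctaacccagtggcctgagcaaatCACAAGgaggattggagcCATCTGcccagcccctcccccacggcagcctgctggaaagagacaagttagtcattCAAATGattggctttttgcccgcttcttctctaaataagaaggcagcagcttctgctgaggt
Pcp4: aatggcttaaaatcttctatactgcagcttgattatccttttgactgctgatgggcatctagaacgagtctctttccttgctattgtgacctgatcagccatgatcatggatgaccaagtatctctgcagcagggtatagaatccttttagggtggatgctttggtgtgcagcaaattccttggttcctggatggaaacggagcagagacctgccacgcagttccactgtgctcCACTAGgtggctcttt
Sox2: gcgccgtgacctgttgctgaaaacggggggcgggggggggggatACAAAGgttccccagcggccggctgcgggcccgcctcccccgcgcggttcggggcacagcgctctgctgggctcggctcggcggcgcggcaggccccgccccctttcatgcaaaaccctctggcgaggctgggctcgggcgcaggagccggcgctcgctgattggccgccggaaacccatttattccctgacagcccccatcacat

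The Fabp7 window holds an RBPJ core at its far end (-249 to -244 from the start), an N-box and 2 E-boxes (at -118 and -62). The Pcp4 window holds an N-box at -16, and the Sox2 window holds a SOX core at -206. RBPJ is the DNA-binding partner of activated Notch, E-boxes are bound by proneural factors and N-boxes by Hes repressors. Among the 9 gene windows the RBPJ core occurs in 2 (Fabp7 and Irx3), against 21.6% of all 32851 windows of this length in the table. The E-box occurs in 1 of 9 against 66.2%, the N-box in 2 against 36.7%, ACAATG in 3 against 10.7%, ACAAAG in 1 against 16.5% and the octamer in 1 (Neurog1) against 1.60%. These matches describe letters in a short window and show no binding.

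The arrays carry 33012 probes, and the authors had scaled the intensities so that array medians lie between 0.981 and 0.993. The arrays of replicate 1 stood apart in both genotypes, where the 75th percentile was 42.7 and 56.9 times the 10th, against 12.4 to 15.98 times on the other 4. The Nrarp probe averaged 398 ± 70.2 (SD, n = 3) on wild-type arrays, against 26.7 ± 14.4 (SD, n = 3) for the knockout. No label says whether that probe lies in the replaced region. The presomitic identity gene Tbx6 read 416 to 745 in wild type and 487 to 848 in the knockout. Of 8 measured presomitic markers 8 lay above the array median on all 6 arrays, but their levels differed between replicates. Hes7 read 54.2 and 64.1 on replicate 1, against 1.19 to 2.09 on the other 4 arrays. Msgn1 read 50.2 and 50.1, against 2.80 to 4.30. Dll1 was also higher on both replicate 1 arrays than on the other 4, whereas Tbx6 and Dll3 were lower.

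Neural genes lay on both sides of the array median. Of the 10 markers 7 lay above the median on all 6 arrays, against 48.1% of named genes, and 5 (Sox2, Fabp7, Tubb3, Stmn2 and Pcp4) lay above the 75th percentile on all 6, against 29.2%. Sox1, a defining gene of committed neural progenitors, lay below the median on all 6 arrays. Among 29 other progenitor genes 9 lay above it throughout. Among the Pax, Gsx, Nkx2, Nkx6 and Olig genes of that list (families named after their values were seen) Pax3, Pax7 and Gsx2 lay above it on every array. Pax6, Nkx6-1, Nkx2-2, Nkx2-9 and Olig1 lay below it on every array, and Gsx1, Nkx6-2 and Olig3 lay above it on 1 array each. Of 38 other neuron genes 17 lay above it throughout, and of 10 genes of mature neurons and glia 2 did, Gad1 and Syt1. The table holds no detection call, so a low reading is not a measured absence, and readings of different probes were not ordered against each other.

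**Figure D1:**
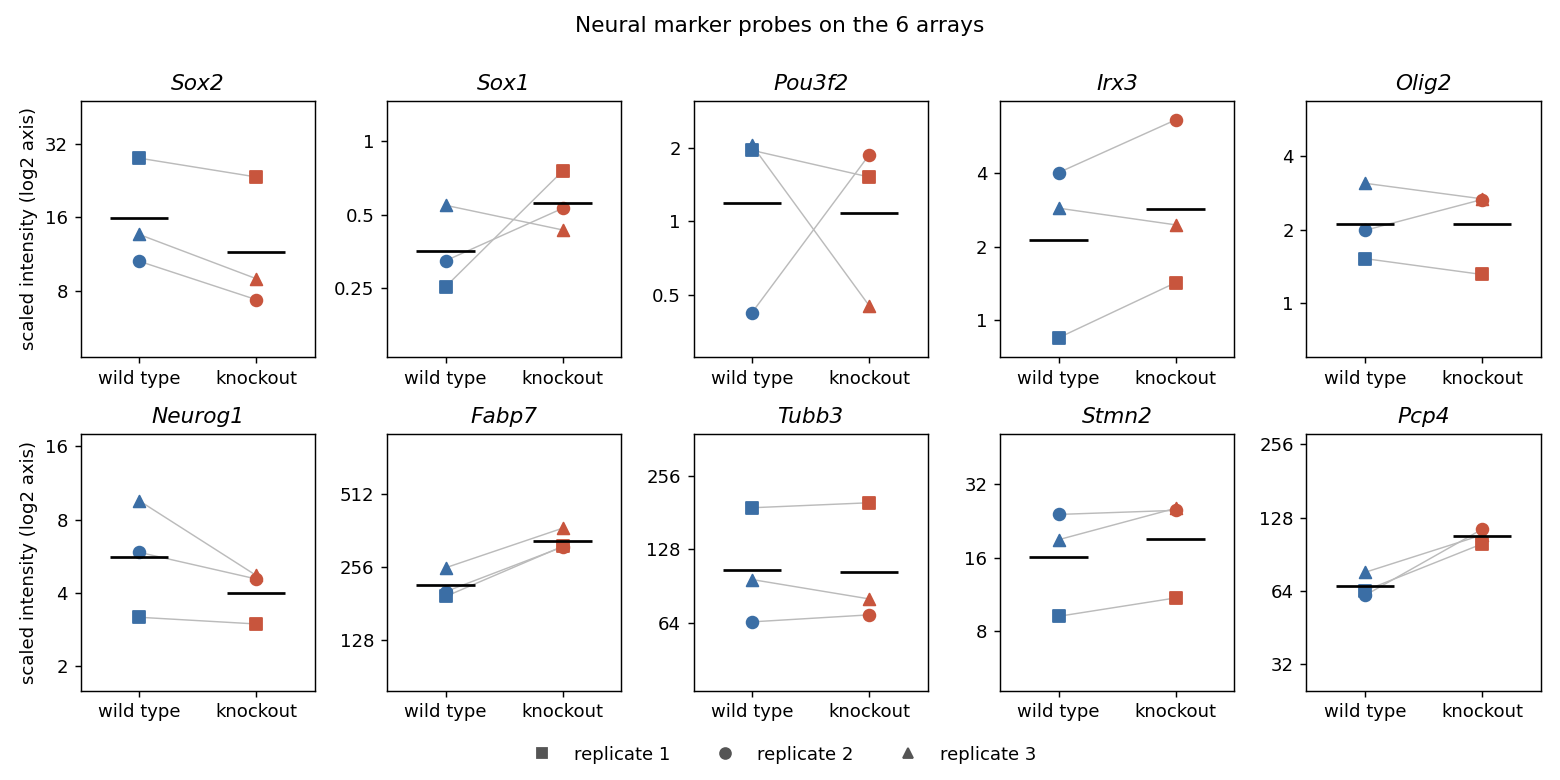
Scaled intensity of the 10 neural marker probes on the 6 arrays (log2 axis, each panel spanning the same number of log2 units). Points are single arrays with their replicate number as symbol, grey lines join arrays of one number, and black bars are geometric means of 3 arrays. Fabp7 and Pcp4 separate by genotype, whereas Sox2, Tubb3, Stmn2, Irx3, Olig2 and Neurog1 separate replicate 1 from the other arrays.

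Fabp7 and Pcp4 were higher in the knockout by about the same factor. Fabp7 read 194, 203 and 254 on wild-type replicates 1 to 3, and 311, 309 and 370 on the knockout arrays. The lowest knockout reading thus lay above the highest wild-type reading. The means were 217 ± 32.6 (SD, n = 3) and 330 ± 34.2 (SD, n = 3), a fold of 1.53 and a log2 difference of 0.61 (SE 0.217 without and 0.094 with the replicate number as a block). The difference within replicate numbers was 0.68, 0.61 and 0.54.

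Pcp4 encodes a small modulator of calmodulin found in many neurons. It read 64.1, 61.3 and 76.2 on the wild-type arrays, against 99.7, 115 and 108 on the knockout arrays, again without overlap. The means were 67.2 ± 7.92 (SD, n = 3) and 108 ± 7.43 (SD, n = 3), a fold of 1.60 and a log2 difference of 0.68 (SE 0.234 without and 0.117 with the block). The pairs gave 0.64, 0.90 and 0.51. These were the only 2 of the 10 genes in which every knockout array exceeded every wild-type array, a pattern seen in 1.83% of all named genes, and in 0 of 10 did every knockout array lie below, against 1.48%. The separation of both was lost when arrays were centred on their 75th percentiles, which shifts replicate 1 against the others, although each stayed higher in all 3 pairs. In RNA from whole tissue, more cells of a type and more RNA per cell cannot be told apart.

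The SoxB1 and POU genes did not share that pattern. Sox2 read 28.0, 10.6 and 13.6 on the wild-type arrays, against 23.4, 7.35 and 8.95 on the knockout arrays. It was lower in all 3 pairs (-0.26, -0.52 and -0.60), but the groups overlapped, since both replicate 1 arrays lay above the other 4. The log2 difference was -0.46 (SE 0.558 without and 0.158 with the block). Sox1 read 0.253, 0.324 and 0.547 on the wild-type arrays, against 0.756, 0.531 and 0.433 on the knockout arrays. Its difference of 0.65 came with pairs of 1.58, 0.71 and -0.34, all from readings under the array median, so the signs of Sox2 and Sox1 were opposite. Pou3f2, a POU factor of neural progenitors, read 1.96, 0.422 and 2.05 on the wild-type arrays, against 1.52, 1.87 and 0.451 on the knockout arrays. One low array in each genotype gave pairs of -0.36, 2.15 and -2.19, around a difference of -0.13. This spread, the widest among the 10 genes, depended on the matching by number. Knockout replicate 2 minus wild-type replicate 3 gave -0.13, and knockout replicate 3 minus wild-type replicate 2 gave 0.10.

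The patterning and proneural genes were mixed. Irx3, which marks intermediate neural tube progenitors, read 0.846, 4.03 and 2.88 on the wild-type arrays, against 1.42, 6.64 and 2.46 on the knockout arrays. Its log2 difference was 0.41 (SE 0.770 without the block), with the sign turned in pair 3 (-0.23) and when wild-type replicate 1 or knockout replicate 2 was left out. Olig2, which specifies motor neuron progenitors, averaged 2.20 ± 0.810 (SD, n = 3) on wild-type and 2.21 ± 0.783 (SD, n = 3) on knockout arrays. Its readings were 1.52, 1.98 and 3.10 against 1.31, 2.66 and 2.67, so that the groups overlapped. Neurog1, a proneural basic helix-loop-helix factor, read 3.18, 5.87 and 9.57 on the wild-type arrays, against 2.98, 4.57 and 4.72 on the knockout arrays. It was lower in all 3 pairs (-0.09, -0.36 and -1.02), with a difference of -0.49 (SE 0.490 without and 0.250 with the block) and overlapping groups.

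For both neuronal cytoskeleton genes the genotype difference was smaller than its SE without the block. Tubb3, the neuron-enriched beta-tubulin, read 189.9, 64.6 and 96.4 on the wild-type arrays, against 199, 69.0 and 80.3 on the knockout arrays. The log2 difference was -0.03, below its SE of 0.522 without the block and below the 0.115 with it. Stmn2, a microtubule regulator of growth cones, read 9.19, 24.1 and 18.9 on the wild-type arrays, against 10.9, 25.005 and 25.5 on the knockout arrays. It was higher in all 3 pairs (0.25, 0.06 and 0.43) with a difference of 0.24 (SE 0.500 without and 0.149 with the block), and the groups overlapped because both replicate 1 readings were low.

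**Figure D2:**
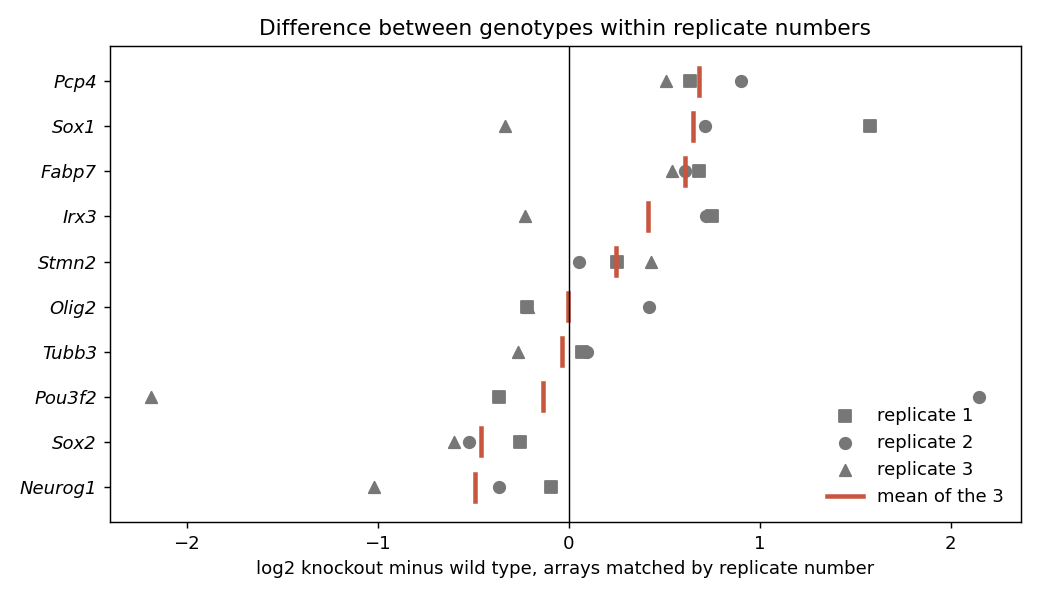
Log2 knockout minus wild type of each marker, arrays matched by replicate number (grey symbols), with the mean of the 3 pairs as a red bar. Fabp7, Pcp4 and Stmn2 are positive in all 3 pairs, and Sox2 and Neurog1 negative in all 3. The pairs of Pou3f2 run from -2.19 to 2.15, a spread that depends on the matching of numbers 2 and 3.

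The 10 genes did not shift in one direction. Their log2 differences were positive in 5 and negative in 5, with a median of 0.12, against 49.5% positive and a median of -0.0025 over all named genes. The median was -0.0029 when Sox1 was left out by a filter on the mean level, and -0.04 without knockout replicate 2. Within replicate numbers 6, 8 and 3 of the 10 were higher in the knockout, with medians of 0.16, 0.51 and -0.25, against 64.0%, 46.9% and 47.6% of named genes. The contrast between numbers 2 and 3 rests on the matching by number. Knockout replicate 2 minus wild-type replicate 3 gave -0.04 for Sox1, -0.13 for Pou3f2, -0.22 for Olig2 and -0.48 for Tubb3, all positive in pair 2. Irx3, Fabp7, Stmn2 and Pcp4 stayed positive. Across all 3 pairs 3 genes were higher each time (background 13.9%) and 2 were lower each time (9.39%). In the limma fit across all probes 0 of 10 passed an adjusted p of 0.05, where 0% of the 33012 probes were called, and 2 of 10 had an unadjusted p under 0.05 (0.657% of probes). On simulated data that fit called no planted change. On the arrays it also left Nrarp uncalled (limma adjusted p = 0.428), although wild type read 16.3-fold higher. The count of 0 in that fit therefore does not bear on whether the genes differed. With the replicate block again 0 of 10 were called, against 2 probes or 0.00606%, and 3 of 10 had an unadjusted p under 0.05 (3.75%). Nothing is read from these counts, as the genes were proposed with this contrast in view.

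Replicate 1 differed from replicates 2 and 3 in many genes, and these markers were called about as often as named genes in general. In the limma fit with genotype as a covariate, 5 of 10 genes differed between replicate 1 and the mean of replicates 2 and 3 at an adjusted p under 0.05, against 36.7% of all probes and 45% of named genes. Of these 2 were higher on replicate 1 (31.5% of named genes) and 3 were lower (13.5%). Sox2 was higher on replicate 1 by 2.60-fold (adjusted p = 0.000304 in limma), averaging 25.7 on its 2 arrays and 10.1 on the other 4. Tubb3 was higher by 2.54-fold (limma adjusted p = 6.5e-05), averaging 194 and 77.5. Stmn2 was lower by a log2 difference of -1.21 (limma adjusted p = 0.000446), Irx3 by -1.76 (0.00395) and Neurog1 by -0.94 (0.0241). The neuronal genes Tubb3 and Stmn2 thus differed in opposite directions between replicates. Both replicate 1 arrays lay above the other 4 for 2 of the 10 genes, Sox2 and Tubb3 (38.1% of named genes), and below them for 4, Irx3, Olig2, Neurog1 and Stmn2 (26.6%).

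Fabp7 and Pcp4 were not called between replicates under the authors' scaling, with differences of -0.17 (SE 0.0997, limma adjusted p = 0.193) and -0.13 (SE 0.124, limma adjusted p = 0.437). The replicate difference was larger than the genotype difference in 7 of the 10 genes (all but Fabp7, Pcp4 and Sox1) and in 84.3% of named genes, so that the count is not particular to the markers. The scaling bears on this comparison. The median replicate difference over all probes was -0.33 as deposited, -1.11 after centring on 75th percentiles and -0.12 after quantile normalization, and higher readings on replicate 1 made up 54.4%, 18.4% and 48.7% of the calls. Sox2 and Tubb3 stayed higher on replicate 1 under both alternatives (log2 0.60 and 0.71 for Sox2, 0.57 and 1.17 for Tubb3), while 8 of 10 genes were called under each, with Fabp7, Pcp4 and Olig2 added as lower. Neurog1 was not called without wild-type replicate 1 (limma adjusted p = 0.243) or wild-type replicate 3 (0.107), nor with no intensity trend (0.0787). What sets replicate 1 apart is not given in the labels.

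**Figure D3:**
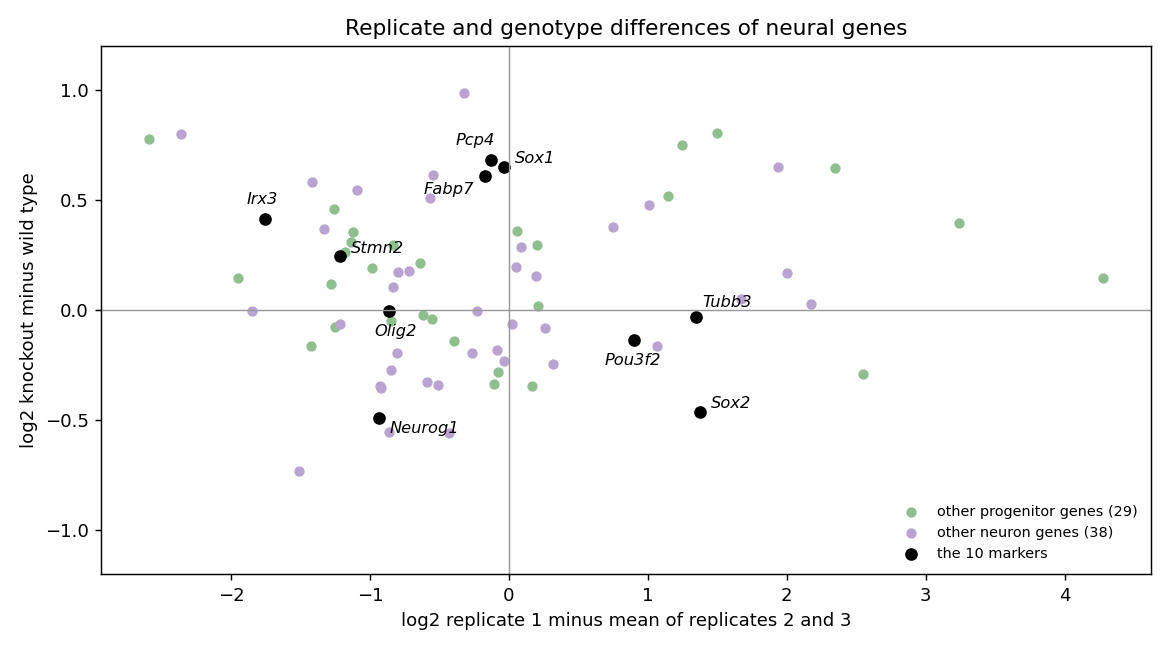
Log2 difference between replicate 1 and the mean of replicates 2 and 3 (horizontal) against log2 knockout minus wild type (vertical), 1 point per gene, for the 10 markers (black) and 29 progenitor and 38 neuron genes of other lists. Fabp7, Pcp4 and Sox1 lie near 0 on the horizontal axis. Sox2, Tubb3 and Pou3f2 lie to the right, and Irx3, Stmn2, Neurog1 and Olig2 to the left.

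Other neural genes also lay on both sides of 0. Of 29 measured progenitor genes beyond the 10, 19 had positive and 10 negative differences between genotypes, with a median of 0.19 and 0 calls in either limma fit. Over all named genes 49.5% were positive, with a median of -0.0025. Only 15 of the 29 had a mean above the median level, so many of these differences came from dim probes. The highest above the median level were Prom1, a membrane glycoprotein of progenitor cells (0.81, higher in all 3 pairs), and Nkx1-2, a homeobox gene of the caudal progenitor zone (0.75). Nkx1-2 read 4.75, 2.20 and 1.38 on wild-type arrays against 6.61, 9.04 and 1.14, with pairs of 0.48, 2.04 and -0.27. The lowest were the dorsal progenitor and somite gene Pax3 (-0.29) and the RNA-binding protein gene Msi1 (-0.28). Pax3 read higher on replicate 1 by a log2 difference of 2.55 (limma adjusted p = 0.000175) and Prom1 by 2.83-fold (0.0165).

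Of 38 neuron genes, 19 had positive and 19 negative differences between genotypes, with a median of 0.01 and 0 calls in either fit. Among those above the median level the highest were 2 genes that were higher in all 3 pairs. Ebf1, an early neuronal differentiation factor also made outside the nervous system, differed by 0.51 and the reticulon gene Rtn1 by 0.48. The lowest were 2 transcription factor genes. The sensory and dorsal interneuron gene Tlx3 differed by -0.73 (SE 0.683 without the block) and the homeobox gene Onecut1 by -0.56 (SE 0.587). Each lay above the array median on only 3 of the 6 arrays. Tlx3 was lower in all 3 pairs, whereas the pairs of Onecut1 were 0.80, -1.05 and -1.42. Every knockout array exceeded every wild-type array in 0 of the 38 neuron and 0 of the 29 progenitor genes, against 1.83% of named genes. Every knockout array lay below in 1 of the 29, the endothelin receptor gene Ednrb (-0.35, below the array median throughout), against 1.48%. The floor and roof plate genes (12 measured, median 0.10), those of mature neurons and glia (10, median 0.03), neural crest (6, median -0.05) and the neuromesodermal and tailbud region (12, median -0.11) gave 0 calls as well. For comparison, presomitic markers had a median of 0.05 (8 measured) and somite genes of -0.13 (11 measured).

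**Figure D4:**
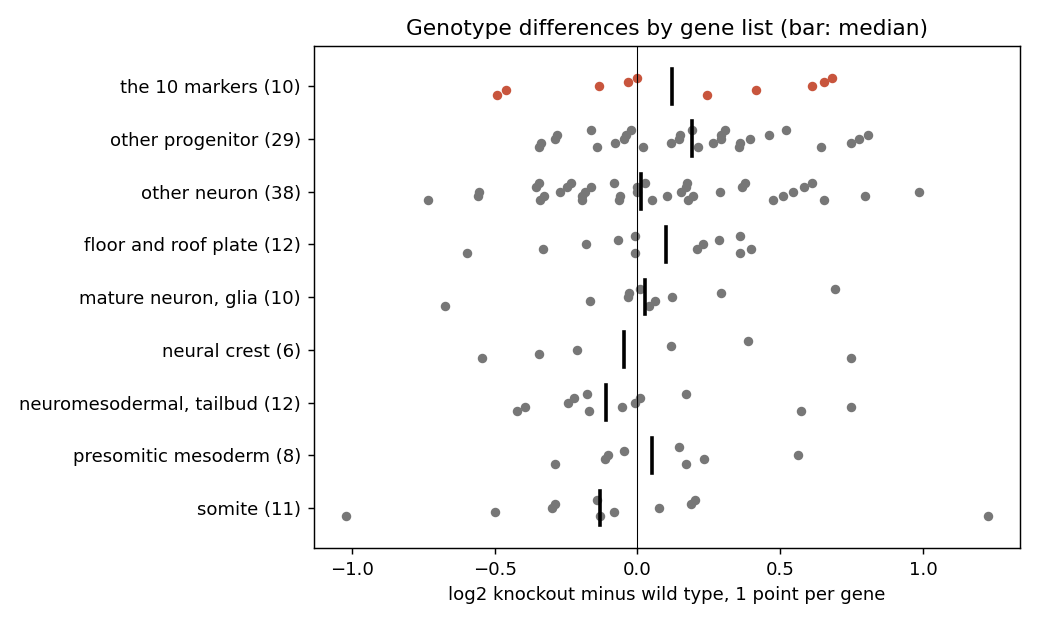
Log2 knockout minus wild type of single genes, grouped by list, with the number of measured genes in parentheses and the median as a black bar. The 10 markers spread from -0.49 to 0.68 around 0.12, and the medians of the other 8 lists lie between -0.13 and 0.19.

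Summed over their probes, the 29 progenitor genes read 444 to 653 in wild type and 483 to 710 in the knockout. The 38 neuron genes read 206 to 281 and 198 to 335, so that both sums overlapped between genotypes. Most of the progenitor sum came from Cdh2 (176 to 305), Metrn (138 to 349) and Ptn (54.1 to 81.1). Dll1, which stands in both the neuron and the presomitic list, read 100 and 129 on replicate 1, where the neuron sums were highest. The sums therefore do not measure the amount of neural cells. Hes5, a Notch target that neural progenitors also express, was the gene called as higher in the knockout with the replicate block (limma adjusted p = 0.00578, 1.0 without it). It read 11.0, 8.26 and 9.49 on the wild-type arrays, against 50.0, 39.4 and 33.3 on the knockout arrays, a fold of 4.24 beside the 1.53 of Fabp7 and 1.60 of Pcp4. Other measured Notch targets of the Hes and Hey families did not share a rise of that size. Hes1 differed by -0.26, Hey2 by 0.11, Heyl by 0.34 and Hey1 by 0.40, without a call in either fit. The 9 surface ectoderm markers had a median of 0.01, with 5 positive and 4 negative differences, and the keratin gene Krt15 was lower in all 3 pairs (-0.77). In 2 of the 9, against 1.83% of named genes, every knockout array was the higher. These were Krt14 (9.89 ± 1.33 and 12.7 ± 1.46, SD, n = 3) and Krt5 (11.7 ± 0.643 and 15.3 ± 3.11, SD, n = 3), and the summed level of the 9 was 218 to 305 in wild type and 224 to 316 in the knockout. Of the other cell types the dissected tissue could hold, endothelium (9 genes, median 0.02), blood (8, median -0.21), hindgut (7, median -0.01) and notochord (6, median 0.11) had 0 genes separated by genotype. The part of these cell types in the Fabp7 and Pcp4 differences was not tested.

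The median pattern of the 10 genes over the 6 arrays, each gene centred on its own mean log2, was -0.46, -0.38 and 0.17 on wild-type replicates 1 to 3 and 0.23, 0.30 and -0.01 on the knockout arrays. Of 8641 other named genes above the median level, Arhgap8, Dmrt2, Prss22, Ell3 and Glyr1 lay closest to it, at root mean square distances of 0.0989 to 0.170 log2 units. The distances of the 10 genes themselves from it were 0.210 (Pcp4), 0.220 (Fabp7) and 0.269 (Sox1) up to 0.923 (Pou3f2). Arhgap8, Dmrt2, Prss22, Ell3 and Glyr1 were picked as the closest of 8641 genes, so smaller distances for them follow from that choice. With no typical distance of the 8641 genes given, these values do not show whether the 10 genes follow the pattern better or worse than other genes.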

How the data were processed

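Digoxigenin-labelled cRNA from presomitic mesoderm was measured on AB1700 one-colour arrays of Applied Biosystems, as stated per the labels' protocols. A human array is named in the descriptions, although organism and probe annotation are mouse. The deposited values are linear intensities that the authors had scaled per array, with 0 values at or below 0. For the scaling software and background correction, the sources used here give nothing, and no flags were used.

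The annotation named 1 gene for 14411 of the 33012 probes and several for 247, and 18354 stayed unnamed here. Intensities were converted to log2 with no offset or filter and fitted by limma (version 3.58.1, R 4.3.3: lmFit, eBayes with an intensity trend, two-sided, Benjamini-Hochberg adjustment over all probes, threshold 0.05), on genotype, or on genotype and replicate number for the replicate contrast. Tested on simulated data with planted changes, all 3 fits returned the planted sizes on average. The fits with the replicate number called most of the larger changes, whereas the genotype fit without the block called none of either size. With 3 arrays per genotype the number of arrays limits precision.

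Arrays of one number deviated together from their group means (correlations over probes of 0.757, 0.442 and 0.374), and were taken as pairs. Across numbers 2 and 3 they were 0.397 and 0.419, so the pairing rests on replicate 1 standing apart. With numbers 2 and 3 crossed, Fabp7, Pcp4 and Stmn2 stayed positive, and Sox2 and Neurog1 stayed negative. The signs of Sox1, Pou3f2, Olig2 and Tubb3 turned and thus rest on matching by number. Irx3 stayed positive for knockout replicate 2 and negative for knockout replicate 3.

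The 10 genes, the lists and the replicate contrast were chosen with earlier results of these data known. Beyond the 10, genes were named as the 2 highest and 2 lowest differences of a list above the median level, those called, Nrarp, Hes5 and the 5 nearest in pattern. Other genes were named outside that rule after their values were seen, among them Ednrb, most Pax, Gsx, Nkx2, Nkx6 and Olig genes, and some presomitic genes and Notch targets. Some genes that the rule selects are not described above, such as the somite gene Aldh1a2 (1.23, higher in all 3 pairs). Alternatives were the replicate block, other scalings, an offset of 1, a filter on dim probes, no trend, another probe rule and leaving out arrays. Python 3.11.15, pandas 2.3.3, numpy 2.4.6 and matplotlib 3.10.9 were used.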

Additional observations from a re-analysis of the deposited data

How the results depend on the processing

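The number of probes called between genotypes was 0 as reported and 2 with the replicate block, the fit in which the replicate numbers pair the arrays. It ran from 0 to 2 when arrays were left out (2 without replicate 1 in both genotypes) and was 0 under the other alternatives. The 10 neural markers were called in none of these fits. Fabp7 and Pcp4 kept a positive difference, and Sox2 and Neurog1 a negative one, under all 13 alternatives, and Sox1 kept a positive one under the 12 that retained it. The replicate block, the filter on dim probes and the averaging of probes cannot change the difference of a marker they keep. Only the other scalings, the offset and leaving out arrays could turn a sign. The sign turned in at least 1 alternative for Pou3f2, Irx3, Olig2, Tubb3 and Stmn2. The number of markers with every knockout array above every wild-type array, a count whose alternatives were chosen after seeing the data, was 2 as reported, 0 with 75th percentile centring and 2 to 3 with arrays left out. The median difference of the 10 ranged from -0.04 to 0.39 over single arrays left out. Between replicate 1 and the others, 12123 probes were called as reported, 21384 with 75th percentile centring and 6308 to 12302 with single arrays left out (the lowest without knockout replicate 1). Markers called there numbered 5 as reported, 8 with 75th percentile centring, 8 with quantile normalization and 4 to 6 with single arrays left out. The small replicate difference of Sox1 (-0.04) turned to 0.53 with quantile normalization, to 0.027 with an offset of 1, and ranged from -0.73 to 0.66 with single arrays left out, positive without wild-type replicate 1 (0.66) or 3 (0.33). Averaging probes of a gene changed no marker, as each has 1 probe.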
